A study of Oreochromis niloticus with 14 samples.

Results

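The 300 genes described here were the most abundant testis transcripts of adult male tilapia (Oreochromis niloticus) that the deposited liver table does not list. Their identifiers have a row in the testis table and none in the liver table, and they were ranked by the mean of the 3 control testes. They are 300 of the 4553 genes listed only for testis, of the 16930 genes listed for testis, and of the 17455 genes listed in either tissue. The genes were thus chosen by their values in control testes, and their high control level is a description and not a finding.

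RNA-Seq was performed on testis from 3 BaP-treated and 3 control fish, taken from 1-year-old stock, and on liver from 4 BaP-treated and 4 control fish. The labels do not say whether livers and testes came from the same fish. Benzo(a)pyrene (BaP) is a polycyclic aromatic hydrocarbon. BaP-treated fish received 5 intraperitoneal injections of 3 mg/kg, with 6 days between injections, and were sampled on day 26. Controls were injected on the same schedule with DMSO and corn oil, the carrier of BaP. Each group was held in 2 aquariums of its own, so an effect of the aquarium and an effect of BaP cannot be told apart.

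The fish testis holds germ cells in cysts formed by Sertoli cells, with Leydig cells, which make androgens, between the tubules. In vertebrates, germ cells in meiosis and in sperm formation are known for transcribing many genes that are silent in other organs, among them genes of the synaptonemal complex and of the sperm tail. BaP is known as a ligand of the aryl hydrocarbon receptor, which induces cytochrome P450 enzymes.

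No gene function can be given for the 300 genes. The tables list Ensembl gene IDs alone. The gene list of the study's supplement that was read for names pairs 1526 IDs with names. It names 0 of the 300 and 0 of the 4553 genes listed only for testis. The RefSeq gene table used here holds Ensembl IDs in 0 of its rows. The genes are therefore called by their rank, with rank 1 for the highest control mean, and no sequence was matched to them.

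The label "only for testis" describes the tables and not an absence from liver. Every gene in the liver table had more than 1 CPM (reads scaled to a library total of 1e+06) in at least 3 of the 8 livers, and every gene in the testis table had that in at least 2 of the 6 testes. A gene without a liver row was not analysed in liver here, and its liver level is not known. Whether that limit decided the listing was not established. If it did, such a gene had more than 1 CPM in fewer than 3 of the 8 livers.

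Each poly(A) testis library held between 26694344 and 30347667 reads on listed genes. The deposited values are such CPM on an effective library size, called normalized CPM below. They are not divided by gene length, so the ranking orders genes by reads and not by molecules. The labelled tissue could be checked only against the named genes. Of the marker symbols written for this work, 2 of 19 for germ cells, 0 of 28 for meiosis, 1 of 115 for spermatids and flagella, 3 of 18 for Sertoli cells and 0 of 21 for Leydig cells had a named row in the testis table. The spermatid gene found was MORN3, between 202 and 309 normalized CPM in BaP testes and between 227 and 376 in control testes. The 2 germ cell genes summed to between 4.33 and 10.2 normalized CPM in BaP testes and between 5.43 and 16.4 in control testes. The 3 Sertoli cell symbols fell on 2 gene IDs, which summed to between 13.7 and 33.0 in BaP testes and between 14.6 and 33.5 in control testes. For liver, 17 named genes summed to 108, 840 and 73.4 normalized CPM in BaP replicates 1, 2 and 3 and to between 48.3 and 64.8 in control testes. For red cells, 4 named genes summed to between 41.3 and 84.3 in BaP testes and to 55.6, 655 and 443 in control replicates 1, 2 and 3. For the exocrine pancreas, 6 named genes summed to 7.30, 44.7 and 103 in BaP replicates 1, 2 and 3 and to between 2.42 and 6.04 in control testes. No marker named in these lists was at 0 in any testis. Because the 300 genes have no names here, these lists cannot show whether any of them is a marker. The names come from the study's list of altered genes, which holds 0 of the genes listed only for testis. The 1444 testis genes it names are thus all listed for liver too. Whether changes in testis had a part in choosing that list was not established here, and the part of these sums in the results was not tested. In whole tissue, fewer cells of a type and less RNA per cell cannot be told apart.

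Of the 100 genes with the highest control means in liver, 92 were also listed for testis. They summed to 12711, 15138 and 19366 normalized CPM in BaP replicates 1, 2 and 3 and to 15564, 16144 and 24244 in control replicates 1, 2 and 3. BaP replicate 2 was the highest testis for 47 of the 92 genes, beside 12.2% of all testis genes. The sum of the named liver markers was also highest in BaP replicate 2. Without BaP replicate 2, the mean share of reads on the 300 genes in BaP testes, given below, was 7.86%.

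Control replicate 1 stood apart from the other testes in these genes. BaP replicates 1, 2 and 3 held the highest value for 16, 25 and 8 of the 300 genes, and control replicates 1, 2 and 3 for 224 (74.7%), 6 and 21. The share of reads, the spread, the first principal component, the highest fish and the comparison of BaP with control are therefore also given without it.

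The 300 genes had control means between 107 and 2713 normalized CPM, with a median of 189. In BaP testes, which played no part in the choice, their means had a median of 177 and a lowest value of 62.7. The median over all testis genes was 19.8 normalized CPM in BaP testes and 20.4 in control testes. Of the 300 genes, 7 had a mean of at least 1000 in BaP testes and 10 in control testes, and 25 in BaP testes and 24 in control testes lay between 500 and 1000. Among the 10 testis genes with the highest control means, 2 were of this group, and among the 100 highest 14 were. Rank 300 averaged 105.7 normalized CPM in BaP testes and 106.9 in control testes. Rank 301, just outside, averaged 105.5 in BaP testes and 106.3 in control testes, so the limit of 300 genes falls at no step in level.

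The order of the genes carried over to BaP fish. Ranking by the 3 BaP testes alone kept 279 of the 300 genes (93.0%). Of the first 10, 8 were also among the first 10 of the genes listed only for testis when ranked by BaP testes.

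Together the 300 genes took 8.33%, 8.40% and 7.40% of the testis reads in BaP replicates 1, 2 and 3, against 9.17%, 7.54% and 8.04% in control replicates 1, 2 and 3. The mean share was 8.04% ± 0.563 (SD, n = 3) in BaP testes and 8.25% ± 0.835 (SD, n = 3) in control testes. The 2 groups overlapped, and control replicate 1 had the highest share. The 95% Wilson intervals of these shares, such as 9.16% to 9.18% for control replicate 1, cover counting error only, and the gaps between fish were wider. Without control replicate 1 the control mean was 7.79%. All 4553 genes listed only for testis took 12.8% ± 0.636 (SD, n = 3) of the reads in BaP testes and 12.9% ± 0.922 (SD, n = 3) in control testes. The 10 highest genes held between 15.2% and 17.3% of the reads of the 300 genes in BaP testes and between 13.8% and 21.9% in control testes.

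Rank 1, the 8th most abundant testis gene by control mean, had 1495, 3103 and 1301 normalized CPM in BaP testes and 442, 2594 and 5103 in control testes. Its lowest and its highest values were both in control fish, 11.5-fold apart, and the BaP fish lay between them. Rank 2 had 1372, 2154 and 2226 normalized CPM in BaP testes and 2144, 2361 and 3482 in control testes. Here BaP replicate 1 was lowest and control replicate 3 highest, and the groups overlapped. Rank 3 had 2085, 1964 and 1660 normalized CPM in BaP testes and 1962, 1751 and 1521 in control testes, so this gene was within a 1.37-fold range over all fish.

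Rank 4 had 646, 927 and 324 normalized CPM in BaP testes and 1418, 207 and 1967 in control testes. Control replicate 2 was lowest and control replicates 1 and 3 were above every BaP fish. Rank 5 had 1730, 1086 and 914 normalized CPM in BaP testes and 1526, 1085 and 804 in control testes. These values overlapped from fish to fish, with the highest and the lowest value 2.15-fold apart. Rank 6 had 1472, 1384 and 1092 normalized CPM in BaP testes and 1337, 1069 and 903 in control testes, again with overlap. Rank 7 had 838, 828 and 621 normalized CPM in BaP testes and 1479, 798 and 1033 in control testes. Control replicate 1 was highest here and BaP replicate 3 lowest. Rank 8 had 809, 879 and 2042 normalized CPM in BaP testes and 938, 810 and 1507 in control testes, with replicate 3 of each group highest. For each of the ranks 9 and 10, control replicate 1 was at 1463 normalized CPM and above every other testis, with BaP testes between 919 and 1065. The groups overlapped for all of the first 10 genes.

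**Figure D1:**
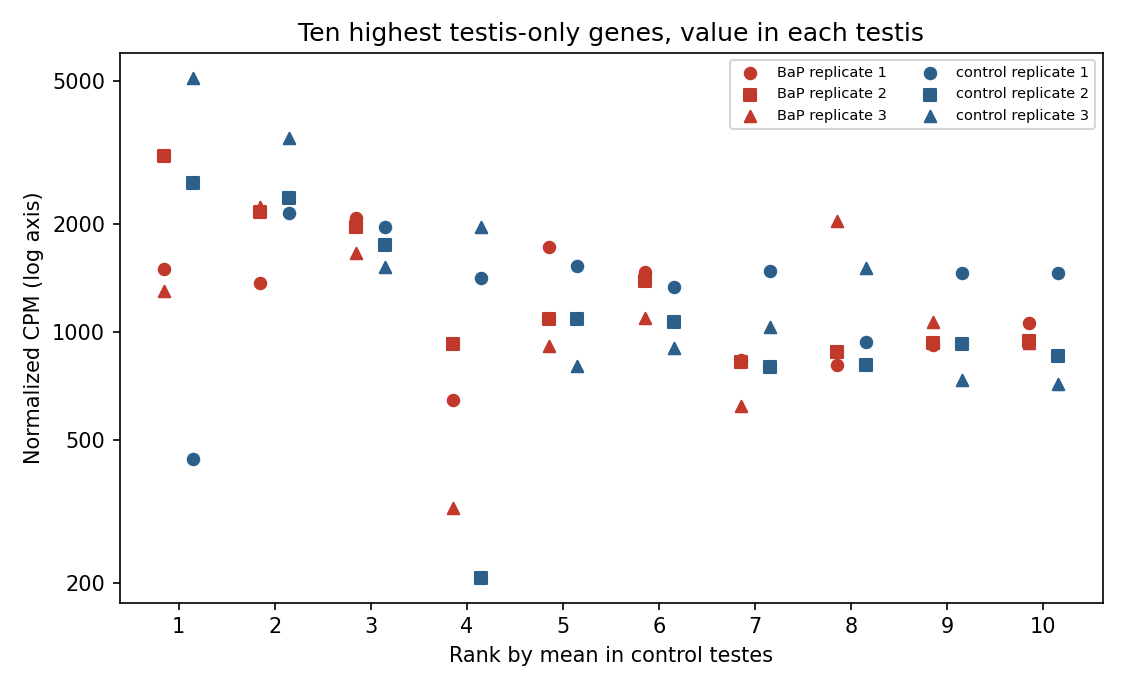
Normalized CPM (log axis) of the 10 highest genes listed only for testis, by rank in control testes. Each symbol is a fish, red for BaP and blue for control, and the 2 groups overlap at every rank, with the widest range at rank 1, where control fish ran from 442 to 5103.

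The spread between fish was large compared with counting error. The coefficient of variation (CV) among the 3 fish of a group had a median over the 300 genes of 15.9% in BaP testes and 30.2% in control testes, while the counting error expected from the reads was 1.39% and 1.38%. The CV was lower in BaP than in control testes for 235 of the 300 genes. Without control replicate 1, the median CV of the remaining control testes was 12.5%, below that of all BaP testes. In the same way, without BaP replicate 3 the median CV in BaP testes was 8.38%. With both of these fish left out, the control median was thus again the larger. Among the 2167 genes listed for both tissues with a control mean at or above that of rank 300, the median CV was 12.1% in BaP testes and 21.1% in control testes. Over all testis genes it was 19.7% in BaP testes and 27.5% in control testes. The dependence on single fish was not particular to the 300 genes. Without control replicate 1 the control median was 11.3% in the 2167 genes and 16.5% in all testis genes, and without BaP replicate 3 the BaP median was 7.40% and 12.7%. No test was made of these differences, since genes of 6 libraries are not replicates.

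**Figure D2:**
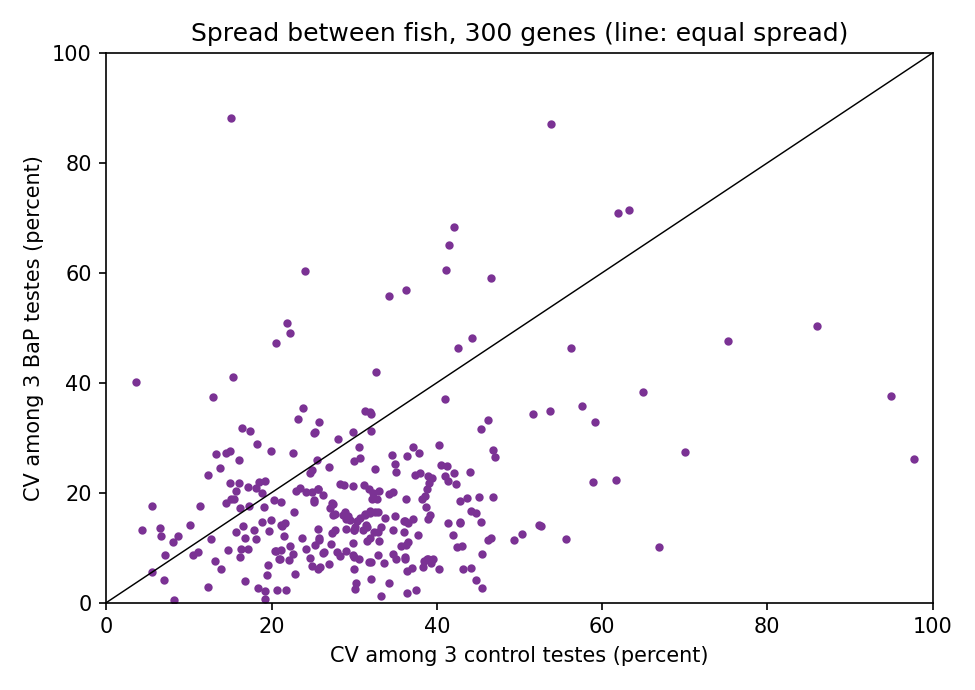
CV among the 3 BaP testes (vertical axis, percent) against the CV among the 3 control testes (horizontal axis, percent), with a point for each of the 300 genes. Of these, 235 lie below the line of equal spread. With control replicate 1 left out the median control CV was 12.5% in place of 30.2%, though a CV over fewer fish tends to be lower by itself.

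Over the 6 testes, the highest value of a gene was a median of 1.89 times its lowest. That median was 1.60 in the 2167 genes listed for both tissues at the same level limit. Over all testis genes it was 1.84, with 1 added to each value. Among the 300 genes the ratio was above 2 for 117, above 3 for 24, above 5 for 8 and above 10 for 2, counts not made for other genes. The steadiest was rank 12, at 882, 932 and 835 normalized CPM in BaP testes and 912, 827 and 834 in control testes. Rank 34 varied almost as little, at 506, 548 and 539 normalized CPM in BaP testes and 537, 556 and 486 in control testes.

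The widest range belonged to rank 288. It had 1.65, 79.5 and 107 normalized CPM in BaP testes and 180, 70.1 and 83.8 in control testes. Only BaP replicate 1 was low, at 45 reads, which is well above the floor of 3 reads (0.110 normalized CPM in that library), and the remaining BaP fish lay among the controls. Every other gene of the 300 had at least 746 reads in every testis. Rank 244 was low in another fish, with 124, 159 and 24.2 normalized CPM in BaP testes and 186, 81.4 and 114 in control testes. These genes were singled out after their values were seen.

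The 300 genes did not vary independently of each other. On the log2(value + 1) scale and relative to the mean of each gene, the first principal component took 52.6% of the variance. Its fish loadings were 0.25, 0.14 and -0.43 for BaP replicates 1, 2 and 3 and 0.71, -0.38 and -0.29 for control replicates 1, 2 and 3. It thus set control replicate 1 and, less far, BaP replicates 1 and 2 against the other fish, and it did not follow treatment. Of the 300 genes, 273 had a positive score, the side of control replicate 1, and 27 a negative score.

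Among all pairs of fish, the levels of the 300 genes were most alike in BaP replicate 3 and control replicate 2 (Pearson's r = 0.94 on the log2 scale, across 300 genes that are not independent replicates). They were least alike in BaP replicate 1 and control replicate 3 (r = 0.79). Within groups, r lay between 0.82 and 0.90 in BaP testes and between 0.80 and 0.87 in control testes. Between groups, r lay between 0.79 and 0.94, a range that holds all values within groups.

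The genes at the negative end of this component had the opposite order of fish. Rank 14 had 391, 412 and 1024 normalized CPM in BaP testes and 377, 984 and 1069 in control testes. Rank 99 had 151, 99.8 and 383 normalized CPM in BaP testes and 76.8, 296 and 390 in control testes. Rank 276 had 60.2, 62.6 and 129 normalized CPM in BaP testes and 61.4, 122 and 157 in control testes. In each of these, BaP replicates 1 and 2 and control replicate 1 were low, and the other fish were high. Rank 1 had a low score too, though BaP replicate 2 was not low in it, and of the 10 genes with the lowest scores 8 were highest in control replicate 3.

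**Figure D3:**
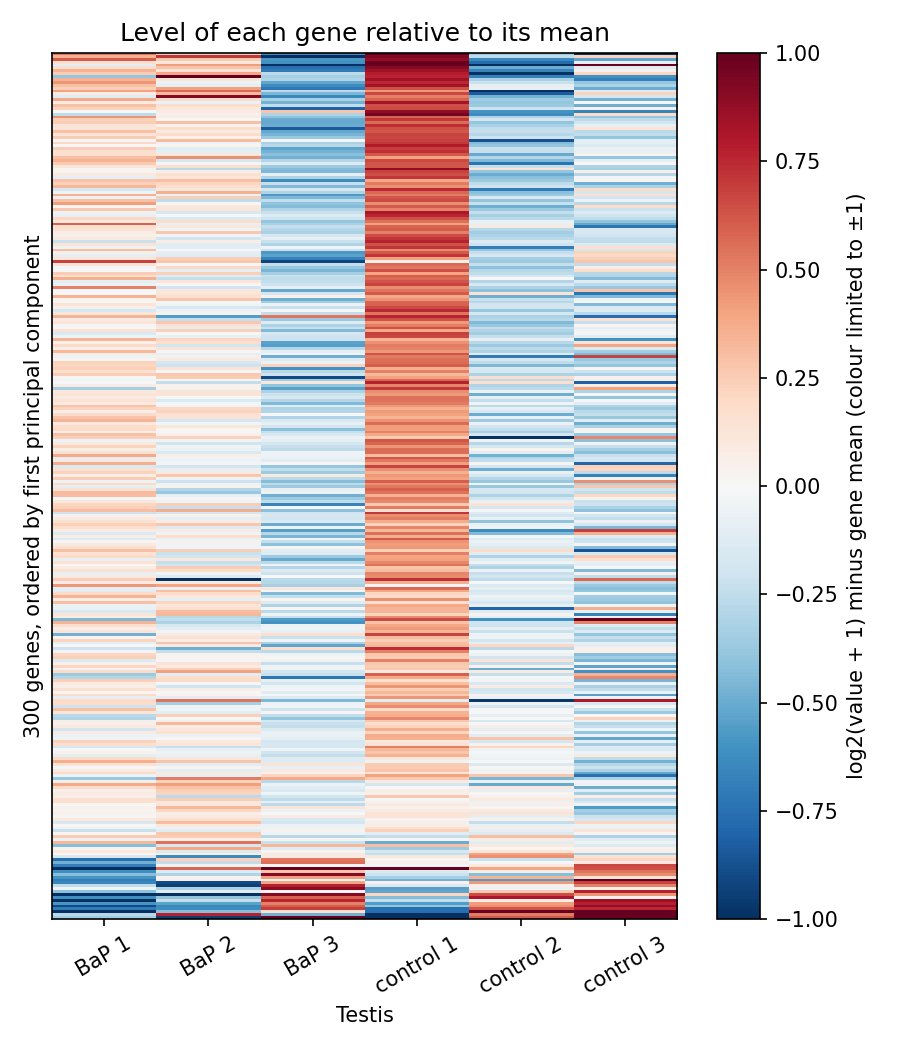
Level of each of the 300 genes in the 6 testes, as log2(value + 1) minus the mean of the gene over the fish (colour limited to ±1), with genes ordered by the first principal component. Most genes are highest in control replicate 1, the highest fish for 224 genes, and a narrow block at the bottom is low in control replicate 1 and in BaP replicates 1 and 2.

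A first component of the same kind was found beyond these genes. In the 2167 genes listed for both tissues at the same level limit it took 48.1% of the variance, with loadings of 0.40, 0.16 and -0.31 for BaP replicates 1, 2 and 3 and 0.58, -0.31 and -0.52 for control replicates 1, 2 and 3. Over all testis genes it took 38.8% of the variance, with loadings of 0.42, 0.18 and -0.38 for BaP replicates 1, 2 and 3 and 0.56, -0.31 and -0.48 for control replicates 1, 2 and 3. Control replicate 1 held the highest value for 55.8% of the 2167 genes listed for both tissues at the same level limit and for 26.7% of all testis genes. Scaling factors were 1.02 to 1.03 in BaP testes, 0.893 in control replicate 1 and 0.992 to 1.05 in the other control testes, and a low factor raises the deposited values. Scaled by the library total alone, control replicate 1 was still the highest fish for 163 of the 300 genes (54.3%) and for 32.4% of the 2167 genes. Over all testis genes on that scale it was highest for 15.5%, below BaP replicate 1 (16.4%), control replicate 2 (20.6%) and control replicate 3 (18.5%). For the 300 genes, the values of control replicate 1 lay a median of 0.48 (log2) above the median fish on the deposited scale. By the library total alone this was 0.27. The same medians were 0.24 and 0.06 in the 2167 genes, and -0.01 and -0.14 over all testis genes. Control replicate 1 was also most often the lowest over all testis genes, for 4117 (deposited scale) and 5961 (library total alone). The part of library composition, including the lower red cell sum of control replicate 1 than of control replicates 2 and 3, was not tested.

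With control replicate 1 set aside, the highest of the remaining fish was BaP replicate 1 for 131 genes, BaP replicate 2 for 82, BaP replicate 3 for 17, control replicate 2 for 17 and control replicate 3 for 53. The lowest was BaP replicate 1 for 23 genes, BaP replicate 2 for 16, BaP replicate 3 for 94, control replicate 2 for 75 and control replicate 3 for 92. High and low fish thus occurred in both groups. In these 5 fish the first component of the 300 genes took 49.6% of the variance, with loadings of 0.69, 0.37 and -0.44 for BaP replicates 1, 2 and 3 and -0.29 and -0.32 for control replicates 2 and 3, so the groups again overlapped on it. This was not particular to the 300 genes. The component took 51.6% in the 2167 genes and 41.8% over all testis genes, with the same signs of the loadings. Among the 2167 genes BaP replicate 1 was also the most frequent highest fish, for 871.

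**Figure D4:**
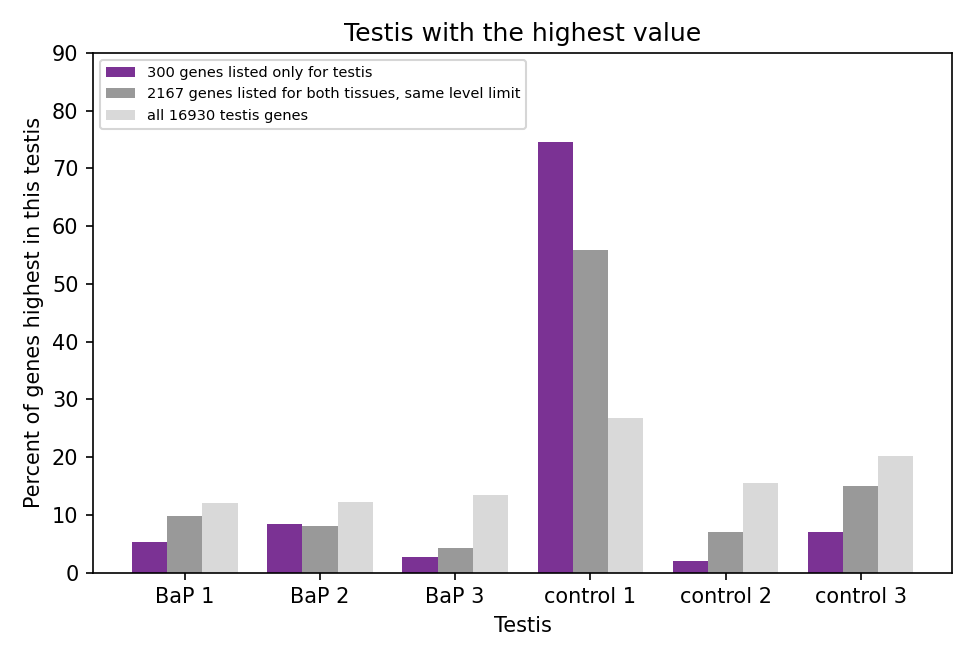
Percent of genes whose highest value was in each testis, for the 300 genes, for the 2167 genes listed for both tissues with a control mean at or above that of rank 300, and for all 16930 testis genes. Control replicate 1 was highest for 74.7%, 55.8% and 26.7% of them on the deposited scale plotted, and for 54.3%, 32.4% and 15.5% by the library total alone, where over all testis genes control replicate 2 was highest most often (20.6%).

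BaP was compared with control by limma on log2(value + 1) over all 16930 testis genes, with Benjamini-Hochberg adjustment. Because the control fish of this comparison also chose the 300 genes, a gene that was high by chance in a control fish was more likely to be taken, and the fold changes are a description. At an adjusted p under 0.05, 0 of the 300 genes passed, with 0.00591% of all testis genes called (1 gene). At an unadjusted p under 0.05, 0 of the 300 passed too, where 2.52% of all testis genes were called. With a fold change over 1.5 required in addition, 0 of the 300 and 2.18% of all testis genes were called. Among the other genes listed only for testis, 209 of 4253 (4.91%) had an unadjusted p under 0.05, and among the 2167 genes listed for both tissues at the same level limit 18 (0.831%) had. The difference between these shares was not tested.

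The same comparison was made on whole reads, which were recovered from the deposited values. With edgeR's exact test, 0 of the 300 genes had an adjusted p under 0.05, beside 0.289% of all testis genes, and 4 had an unadjusted p under 0.05, beside 3.08%. With edgeR's quasi-likelihood test the counts were 0 (beside 0.0%) and 3 (beside 2.63%). With DESeq2 they were 0 (beside 0.319%) and 4 (beside 3.4%). Across the 3 tools the unadjusted calls fell on 6 genes, those of ranks 31, 87, 114, 229, 231 and 235, of which rank 235 was called by all 3. Rank 235 had 61.8, 71.1 and 56.8 normalized CPM in BaP testes and 133, 55.2 and 199 in control testes. Its control replicate 2 was below every BaP fish. Rank 114 had 55.8, 100.0 and 150 normalized CPM in BaP testes and 79.0, 296 and 300 in control testes. Here control replicate 1 lay within the BaP range and the other controls above it. Rank 87 had 179, 232 and 156 normalized CPM in BaP testes and 370, 189 and 299 in control testes. The groups overlapped for 5 of these 6 genes, the exception being rank 231.

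The median log2 fold change of the 300 genes was -0.07, with 110 genes higher and 190 lower in BaP testes, beside a median of -0.02 over all testis genes. The range from the 10th to the 90th percentile ran from -0.35 to 0.19, and 8 of the 300 genes (2.67%) were beyond 1.5-fold in either direction, beside 8.10% of all testis genes and 2.12% of the 2167 genes. That count was higher with any fish left out, and so was the share of all testis genes. It was 22 without control replicate 1 (beside 14.3% of all testis genes), 24 without control replicate 2 (beside 10.2%) and 19 without BaP replicate 3 (beside 14.9%). Without BaP replicate 1, BaP replicate 2 or control replicate 3 it was 10, 11 and 10 (beside 8.75%, 8.22% and 10.3%). The direction of the median rested on control replicate 1. Without that fish the median was 0.14, with 224 genes higher and 76 lower in BaP testes. Without BaP replicate 3 it was 0.02, and scaled by the library total alone 150 genes were higher and 150 lower. For 262 of the 300 genes (87.3%) the mean of the BaP testes lay within the range of the control testes, beside 75.0% of all testis genes. Within the narrower range of control replicates 2 and 3 alone it lay for 98 of the 300 genes (32.7%), beside 37.9% of all testis genes. Taken singly, BaP replicate 1 was above every control fish for 26 genes and below every control fish for 35, BaP replicate 2 was above for 33 and below for 24, and BaP replicate 3 was above for 10 and below for 99. These counts for single fish were not made over all testis genes, so whether they are particular to the 300 genes is not known.

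**Figure D5:**
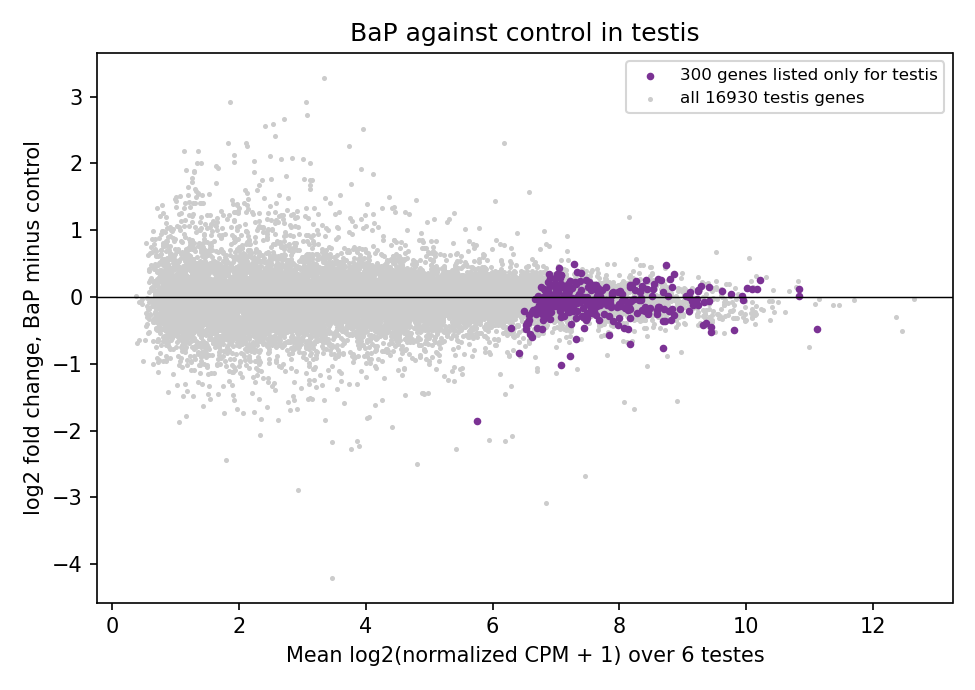
Log2 fold change, BaP minus control, against the mean log2(normalized CPM + 1) over the 6 testes, with the 300 genes in purple and all testis genes in grey. The 300 genes lie around 0, with a median of -0.07, and the lowest, at -1.86, is rank 288.

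The groups did not overlap for 8 of the 300 genes. In 1 of them, rank 256, every BaP testis was higher, at 139.2, 169.5 and 147.8 normalized CPM, against 138.9, 136.6 and 90.8 in control testes, with 3.24% of all testis genes called in this direction. In 7 of them every BaP testis was lower, with 2.84% of all testis genes called. Of the 7, 6 were highest in control replicate 1, as were most of the 300 genes highest in a control fish (224, against 6 and 21 in control replicates 2 and 3). The log2 fold changes of the 7 lay between -0.48 and -0.22. Rank 15, the most abundant of them, had 571, 584 and 579 normalized CPM in BaP testes and 1077, 604 and 656 in control testes. Its BaP fish were nearly equal, and control replicate 1 was far above all the other fish. Set against control replicates 2 and 3 alone, every BaP testis was higher for 44 of the 300 genes (14.7%), beside 10.7% of all testis genes and 14.8% of the 2167 genes. Every BaP testis was lower for 11 (3.67%), beside 11.0% of all testis genes and 5.17% of the 2167 genes. The difference between these shares was not tested.

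The genes with the smallest p in each direction are given by their Ensembl ID. ENSONIG00000013223 (rank 229) had 201.7, 207.0 and 149.2 normalized CPM in BaP testes and 135, 109 and 151 in control testes, 0.49 higher on the log2 scale in BaP testes (SE 0.23, limma adjusted p = 1.00). BaP replicate 3 lay below the highest control fish. ENSONIG00000015079 (rank 275) had 165, 192 and 112 in BaP testes and 92.8, 122 and 126 in control testes, 0.43 higher on that scale (SE 0.26). ENSONIG00000000212 (rank 231) had 88.4, 107 and 82.5 in BaP testes and 152, 109 and 128 in control testes, with a difference of -0.48 on the log2 scale (SE 0.22, limma adjusted p = 1.00). In this gene the groups did not overlap, though BaP replicate 2 and control replicate 2 were close. ENSONIG00000000887 (rank 31) had 260, 220 and 537 in BaP testes and 421, 551 and 659 in control testes, a difference of -0.77 (SE 0.37). Its BaP replicate 3 lay within the control range, and the other BaP fish below it. With each fish left out in turn, the differences of these 4 genes kept their signs, at 0.36 to 0.64, 0.27 to 0.66, -0.60 to -0.36 and -1.16 to -0.52 in the order given. These genes were chosen by their p over the same fish, which favours kept signs, so the ranges are a description. None of them passed the adjusted test.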

How the data were processed

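Reads were trimmed and aligned (TopHat) by the authors, who used edgeR for expression differences. The counting program, genome build and annotation are not given in the sources used here. The deposited tables, a table for each tissue, hold a normalized signal: reads per gene divided by an effective library size (normalized CPM). Dividing them by the value of a single read in each library gave whole reads (100% within 0.01), and edgeR's TMM factors recomputed from them equalled the deposited scaling. Samples were grouped by their titles, which give each testis its own number, read here as that of a fish. All of the testis numbers also occur in the liver titles.

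BaP and control testes were compared with limma 3.58.1 on log2(value + 1) over every testis gene (R 4.3.3). edgeR 4.0.16 and DESeq2 1.42.0 on the recovered reads were alternatives. All tests were also run on simulated reads, in which genes varied independently of each other. That run cannot show how the tests behave under the shared variation between fish seen here. Replicate numbers are shared by different fish. Genes are named as the 4 with the smallest p, 2 in each direction, by rank for the first 10 and the limit; other ranks were chosen after their values were seen. The genes and the lists were chosen with earlier results of these data known. Fish are few (3 a group), and p-values measure the spread between these fish. Liver values were used only to see which genes are listed and to find the 100 most abundant in control livers.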

Additional observations from a re-analysis of the deposited data

How the results depend on the processing

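Over all testis genes, the number with an adjusted p under 0.05, 1 by limma, was 49 by edgeR's exact test, 54 by DESeq2, and 0 by the quasi-likelihood test, with a pseudocount of 0.1, with library total scaling and with a replicate block, and 0 to 0 with a fish left out. The 426 genes with an unadjusted p under 0.05 became 745 with the replicate block and 282 to 924 with a fish left out, and the 369 with a fold over 1.5 as well became 589 and 282 to 829.

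Among the 300 genes, the count with an adjusted p under 0.05 was 0 in every alternative run. The count with an unadjusted p under 0.05, 0 by limma, was 4 by the exact test and by DESeq2 and 3 by the quasi-likelihood test. Over all testis genes these tools called 3.08%, 3.4% and 2.63%. With library total scaling it was 1 (beside 2.51%), and with the replicate block 4 (beside 745 of the 16930 testis genes). It was 1 to 11 with a fish left out (11, or 3.67%, without control replicate 2, beside 2.72% of all testis genes, and 6, or 2.0%, without control replicate 1 or BaP replicate 3, beside 5.46% and 5.03%). With a fold over 1.5 as well it was 4 by the exact test, 2 by DESeq2 and 1 by the quasi-likelihood test. That rule called 517, 528 and 398 of the 16930 testis genes by these tools. Among the 300 genes this count was 4 with the replicate block (beside 589 of the 16930 testis genes) and 0 to 11 with a fish left out. It was 11 (3.67%) without control replicate 2, beside 2.56% of all testis genes. Without control replicate 1 it was 4 (beside 4.63%), and without control replicate 3 it was 0 (beside 3.35%). Without BaP replicates 1, 2 and 3 it was 1, 1 and 5 (beside 1.97%, 1.67% and 4.9%). The cause was not tested. The median log2 fold change ran from -0.17 to 0.14 with a fish left out.

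Taking the top 100 genes gave a share of reads of 5.02% in BaP and 5.21% in control testes, and the top 500 gave 9.58% and 9.74%. With a fish left out, the share was 7.86% to 8.37% in BaP and 7.79% to 8.61% in control testes, and the median CV 8.38% to 17.9% in BaP and 12.5% to 32.7% in control testes. As SD of log2(value + 1), the median spread was 0.23 in BaP and 0.43 in control testes. Ranking by all 6 testes, by the control median or by control replicates 2 and 3 alone (added after seeing the data) kept 287, 288 and 285 of the 300 genes.

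The replicate numbers of the testes are shared by different fish, since each testis title has its own number. Deviations of same-numbered fish correlated at 0.37, -0.08 and 0.21, and those of the other pairs at -0.37 to 0.24. With so few fish a group, these values cannot show whether the numbers stand for a pairing. The replicate block changed no call at an adjusted p under 0.05 among the 300 genes. Each of the 300 genes had 45 reads or more in every library. The values without control replicate 1 of the first component, of the groups not overlapping and of the control range, and the counts beyond 1.5-fold with a fish left out, were added after seeing the data.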
